A study of Rattus norvegicus with 24 samples.

Results

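Cell cycle and proliferation genes were followed singly and as a set in lung tissue (the right caudal lobe) from 24 male rats of the Sprague-Dawley strain, 17 weeks old, with 1 array per rat. A list of 55 genes was matched by symbol to the annotation of the Affymetrix Rat230_2 array, and each gene was read from its brightest probe set annotated to a single symbol. Of the 55 genes, 50 were measured, among 14217 genes in all. Cdc6, Rrm2, Cdc25c, Nek2 and Tpx2 had no such probe set and were not analysed here. The rats fell into 6 groups of 4, in which a nose-only exposure to air or to cigarette smoke at 0.48 mg/L was crossed with a whole-body exposure to air, Iraqi sand or silica at 1 mg/m3. The groups are called air-only (rats 102, 103, 104 and 105), Iraqi sand (301, 302, 304 and 305), silica (501, 502, 503 and 504), smoke (201, 203, 204 and 205), smoke and Iraqi sand (402, 404, 405 and 406) and smoke and silica (602, 603, 604 and 605). Every rat, the air-only ones included, was kept through the nose-only sessions of 3 hours on 5 days per week, for 5 weeks by the treatment protocol and 6 by the design text, and the whole-body sessions of 18 hours on 7 days per week lasted the final 2 weeks. Values are log2 levels as deposited after robust multi-array averaging (RMA), and values of a group are given in order of rat number.

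A cell that divides first licenses its replication origins and copies its DNA in S phase, then condenses and separates its chromosomes in mitosis and divides its cytoplasm in cytokinesis. Cyclins and their kinase partners drive these steps. Genes of S phase are largely under E2F transcription factors, while genes of late G2 and mitosis are switched on later. Promoters of the latter often carry elements named CHR, at which B-MYB and FOXM1 complexes act, and CCAAT boxes. Most cells of an adult lung are at rest, and division after injury comes chiefly from basal and club cells of the airways, type 2 cells of the alveoli, macrophages, endothelium and fibroblasts.

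Most members gave a dim signal: 45 of the 50 lay below the median gene of the array, and 5 at or above it. RMA compresses differences between dim probe sets, so the differences below may be smaller than those in the RNA. Array medians ran from 7.26 to 7.32. The lung identity of the lobes was checked on 6 measured lung tissue genes, whose mean was between 13.4 and 13.8 in every group. Rats 104 (air-only) and 302 (Iraqi sand) stood apart from their groups in heart muscle genes, at 3.03 and 2.93 above their group mates in the mean of 10 genes, and rat 302 was above all its mates in 59.6% of all genes. Because the whole lobe was ground, fewer dividing cells and less RNA per dividing cell cannot be told apart.

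The mean of the members varied little among rats without smoke, and in each smoke group 1 rat stood above its mates in 42 or more of the 50 members. The mean of the 50 members was 7.06, 7.10, 7.17 and 7.07 in the air-only rats, 7.05, 7.24, 7.16 and 7.18 in the Iraqi sand rats and 7.28, 7.07, 7.30 and 7.13 in the silica rats. It was 7.18, 7.63, 7.32 and 7.12 in the smoke rats, 7.09, 7.14, 7.17 and 7.67 in the smoke and Iraqi sand rats and 7.24, 7.47, 8.34 and 7.25 in the smoke and silica rats. The high rats were 203, 406 and 604, and all other rats lay at or below 7.47. As group means this gave 7.10 ± 0.05 (SD, n = 4) in air-only rats, 7.16 ± 0.08 with Iraqi sand, 7.19 ± 0.12 with silica, 7.31 ± 0.23 with smoke, 7.27 ± 0.27 with smoke and Iraqi sand, and 7.58 ± 0.52 with smoke and silica. Without rat 604 the smoke and silica mean was 7.32 ± 0.13 (SD, n = 3), next to that of smoke. The smoke and the smoke and Iraqi sand rats overlapped the air-only range of 7.06 to 7.17, and the lowest smoke and silica rat, at 7.24, lay just above it.

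**Figure D1:**
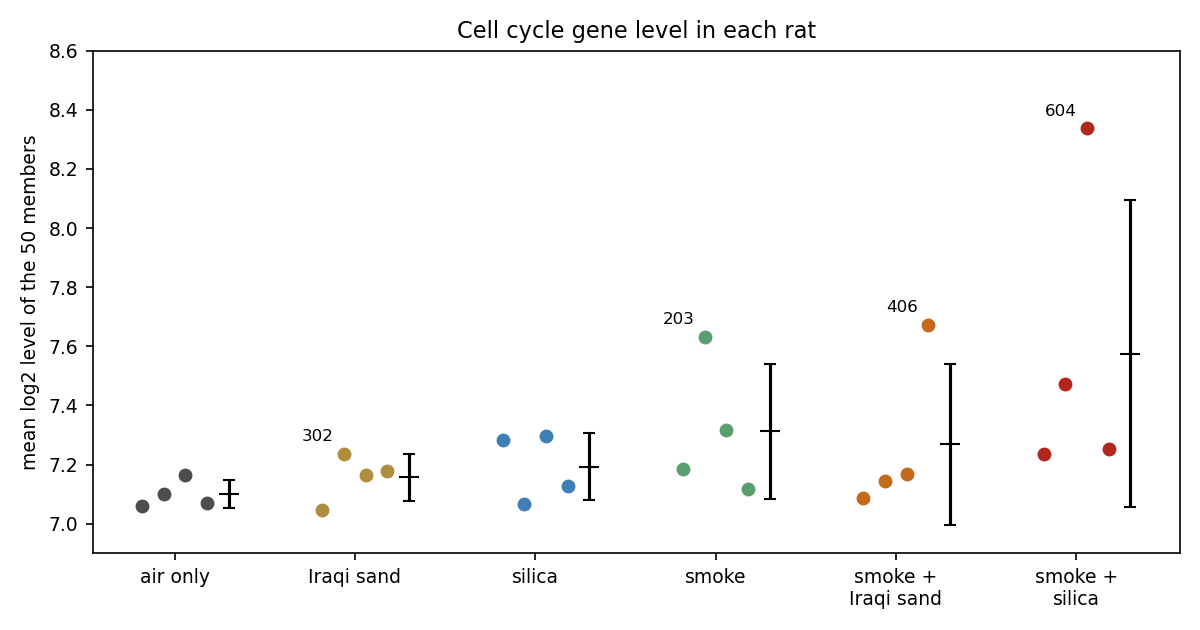
Mean log2 level of the 50 members (vertical axis) in each of the 24 rats, by group, with the group mean and SD (n = 4) beside the points. Rats 203, 406 and 604, at 7.63, 7.67 and 8.34, lie above the other 3 rats of their groups.

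Rat 604 was above all 3 group mates in 47 of the 50 members, where 36.4% of all genes were. Rat 406 was above its mates in 42 members (31.5% of all genes) and rat 203 in 42 (25.4% of all genes). The excess reached 2-fold or more in 22 members in rat 604, 7 in rat 406 and 2 in rat 203, against 1.27%, 0.53% and 0.95% of all genes. The members farthest above the mates in rat 604 were Mki67, the antigen that coats mitotic chromosomes, by 2.28 (4.86-fold), Ect2, the exchange factor that starts the cleavage furrow, by 2.25 (4.77-fold), and cyclin A2 (Ccna2) by 1.87 (3.65-fold). In rat 406 they were Cks2, a small subunit of cyclin-dependent kinases, by 1.40, Ect2 by 1.28 and Cdk1 by 1.23. In rat 203 Aurkb came first, by 2.43, followed by Plk4 by 1.04 and Ect2 by 0.89. Members with a large excess in 1 of these rats tended to have a large excess in the others: over the 49 members other than Aurkb the excesses correlated at r = 0.77 between rats 604 and 406, 0.69 between 604 and 203, and 0.75 between 406 and 203, against 0.45, 0.40 and 0.24 over the genes outside the list. Rat 302 had another pattern, with r = -0.23 against rat 604: it was the lowest of all 24 rats in 11 members and the highest in 5, and differed from its mates by -1.65 in Kif23, -1.19 in Plk4 and -1.06 in Bub1. These are correlations across genes, which are not independent replicates. RNA integrity numbers were 8.7 in rat 604 and 9.4 in rat 203, within the 8.1 to 9.8 of the 19 arrays that have one, and none was given for rat 406.

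**Figure D2:**
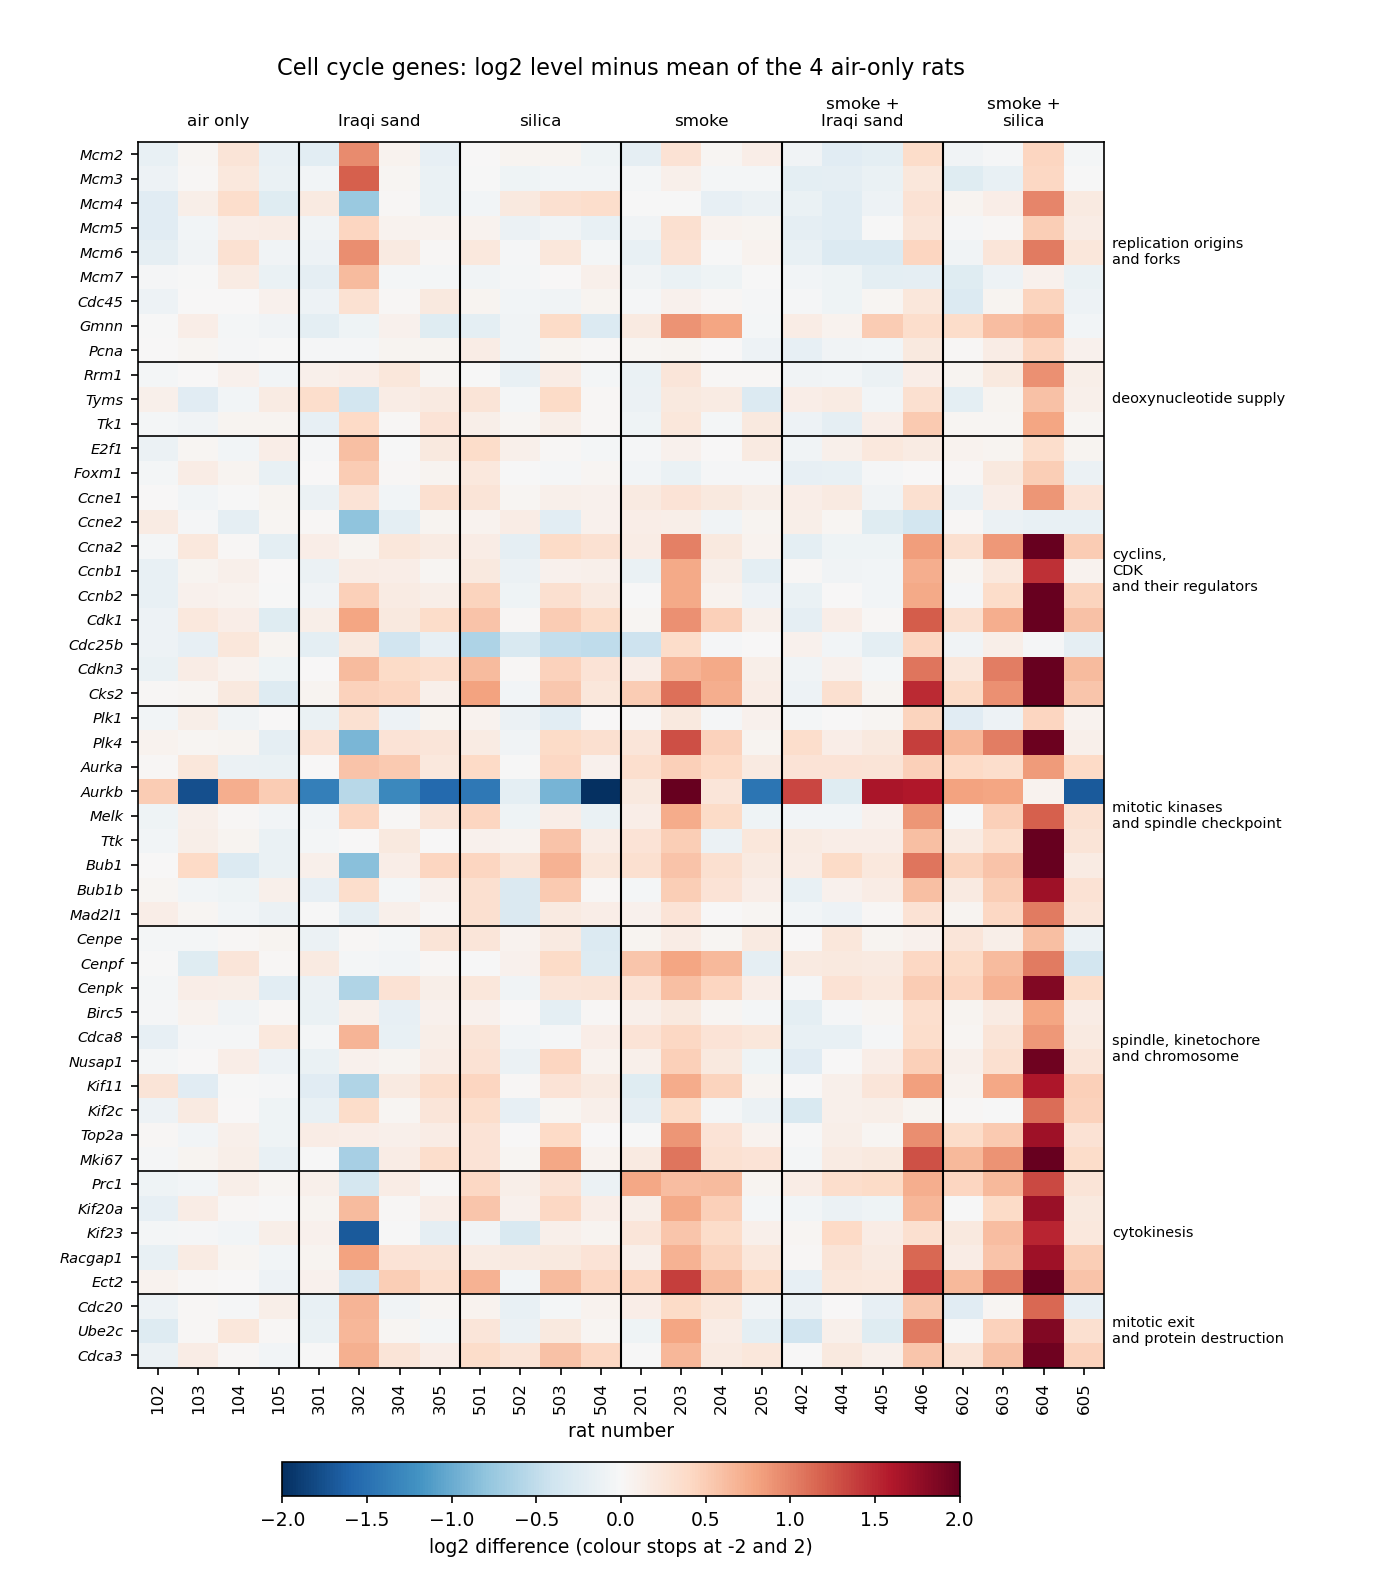
Log2 level of each member (rows, ordered by role) in each rat (columns) minus the mean of the 4 air-only rats, red for higher and blue for lower, with the colour held at -2 and 2. The column of rat 604 is red in most rows, those of rats 203 and 406 are paler red in the same rows, rat 302 is mixed, and the row of Aurkb follows another order of rats.

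Promoters of the measured members carry the elements named above more often than those of other genes. The 250 bases before the annotated start were taken from RefSeq (build GRCr8) for 42 of the 50 measured members. A CHR, searched as TTTGAA or TTCGAA on both strands, was in 17 of 42 (40.5%), against 12.4% of 11700 genes of the array and 17.4% of all 33469 promoters. A CCAAT box, searched as CCAAT on both strands, was in 31 of 42 (73.8%), against 35.1% and 34.0%. Both together were in 15 of 42 (35.7%), against 4.6% and 6.3%. An E2F site, searched as TTTCCCGC, TTTCGCGC, TTTGCCGC or TTTGGCGC on both strands, was in 6 of 42 (14.3%), against 2.9% and 1.7%, and 4 of those 6 were among the 8 promoters of replication genes. No spelling contains another, all are short, and a match is a description of letters only.

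The 150 bases before the start are shown for 6 members on which the values below turn, with matches in capitals and the rest in lower case, read 5′ to 3′ toward the gene. Ccnb2 (chr8:79981659-79981808 on the minus strand), Cdk1 (chr20:19265143-19265292 on the plus strand) and Cks2 (chr17:13727520-13727669 on the minus strand) were each over 3-fold above the mates in rat 604. Prc1 (chr1:143659331-143659480 on the plus strand) and Gmnn (chr17:40729684-40729833 on the plus strand) passed the test on smoke. Mcm5 (chr19:13488663-13488812 on the plus strand) stands for the replication genes.
Ccnb2: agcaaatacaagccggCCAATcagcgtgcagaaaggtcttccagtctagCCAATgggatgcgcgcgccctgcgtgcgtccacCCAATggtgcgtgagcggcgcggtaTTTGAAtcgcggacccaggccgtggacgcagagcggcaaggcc
Cdk1: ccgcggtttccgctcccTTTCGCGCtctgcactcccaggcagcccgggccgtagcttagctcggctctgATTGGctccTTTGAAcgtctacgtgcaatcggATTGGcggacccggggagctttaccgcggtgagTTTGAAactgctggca
Cks2: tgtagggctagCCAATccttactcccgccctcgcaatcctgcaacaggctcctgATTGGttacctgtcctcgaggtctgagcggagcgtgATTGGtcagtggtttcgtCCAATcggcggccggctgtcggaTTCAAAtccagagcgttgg
Prc1: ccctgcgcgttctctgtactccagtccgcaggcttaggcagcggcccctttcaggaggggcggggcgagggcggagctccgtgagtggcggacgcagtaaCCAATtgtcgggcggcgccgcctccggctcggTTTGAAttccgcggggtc
Gmnn: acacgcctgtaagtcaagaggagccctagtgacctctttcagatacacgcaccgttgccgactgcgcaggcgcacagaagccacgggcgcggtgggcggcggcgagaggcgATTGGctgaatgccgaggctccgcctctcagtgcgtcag
Mcm5: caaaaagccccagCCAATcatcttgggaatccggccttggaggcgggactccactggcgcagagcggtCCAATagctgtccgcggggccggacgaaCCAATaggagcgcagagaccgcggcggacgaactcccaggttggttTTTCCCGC
Ccnb2 has 3 CCAAT boxes, starting 134, 101 and 68 bases before the gene, and a CHR starting 43 bases before it. Cdk1 has 2 CHR, 2 CCAAT boxes read on the opposite strand, and 1 E2F site 133 bases out. In Cks2 the CHR lies on the opposite strand, 19 bases out, behind 4 CCAAT boxes. Prc1 has 1 CCAAT box and 1 CHR, 50 and 18 bases out. Gmnn has 1 CCAAT box in this window and no CHR of these letters, and Mcm5 has 3 CCAAT boxes and an E2F site 8 bases out. The excess of rat 604 over its mates had a median of 1.26 in the 17 members with a CHR and 0.83 in the 25 without, and of 0.54 in the 6 with an E2F site and 1.07 in the 36 without. The ranges overlapped, from 0.01 to 2.28 with a CHR and from 0.34 to 1.82 without.

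Replication genes moved least. The 9 measured members were the helicase subunits Mcm2, Mcm3, Mcm4, Mcm5, Mcm6 and Mcm7, the helicase cofactor Cdc45, the sliding clamp Pcna, and geminin (Gmnn), which blocks a repeat licensing of origins. Their mean exceeded that of the mates by 0.53 in rat 604, 0.33 in rat 406 and 0.20 in rat 203. Mcm2 was at 8.10, 8.30, 8.51 and 8.11 in the air-only rats, 8.04, 9.20, 8.33 and 8.09 in the Iraqi sand rats and 8.26, 8.31, 8.30 and 8.16 in the silica rats. It was at 8.08, 8.54, 8.29 and 8.38 in the smoke rats, 8.18, 8.03, 8.06 and 8.62 in the smoke and Iraqi sand rats and 8.18, 8.23, 8.69 and 8.22 in the smoke and silica rats. Its highest value of all was in rat 302, an Iraqi sand rat without smoke, and all 6 group ranges overlapped. Mcm5 was at 7.67, 7.83, 8.02 and 8.04 in the air-only rats, 7.82, 8.32, 7.96 and 7.96 in the Iraqi sand rats and 7.95, 7.78, 7.82 and 7.74 in the silica rats. It was at 7.82, 8.21, 7.96 and 7.95 in the smoke rats, 7.71, 7.68, 7.88 and 8.13 in the smoke and Iraqi sand rats and 7.86, 7.91, 8.38 and 8.04 in the smoke and silica rats. Here too rats 302, 604, 203 and 406 were the highest of their groups, and the group ranges overlapped. Rat 302 led in Mcm3 (1.24 above its mates), Mcm2 (1.05) and Mcm6 (0.90), yet was lower than its mates in Mcm4, at 7.02. Pcna was at 11.30, 11.32, 11.25 and 11.27 in the air-only rats, 11.26, 11.26, 11.34 and 11.33 in the Iraqi sand rats and 11.43, 11.21, 11.35 and 11.30 in the silica rats. It was at 11.33, 11.35, 11.30 and 11.18 in the smoke rats, 11.13, 11.22, 11.22 and 11.48 in the smoke and Iraqi sand rats and 11.31, 11.43, 11.71 and 11.37 in the smoke and silica rats. Rat 604 was 0.34 above its mates (1.27-fold) in Pcna, and no group stood clear of another.

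Geminin differed from the helicase genes. Gmnn was at 7.71, 7.85, 7.67 and 7.64 in the air-only rats, 7.52, 7.63, 7.80 and 7.48 in the Iraqi sand rats and 7.52, 7.64, 8.10 and 7.45 in the silica rats. It was at 7.90, 8.61, 8.51 and 7.68 in the smoke rats, 7.87, 7.78, 8.23 and 8.07 in the smoke and Iraqi sand rats and 8.08, 8.33, 8.41 and 7.67 in the smoke and silica rats. Rats 203, 204, 405, 603 and 604 lay above 8.10, the highest value without smoke, which is 2 smoke rats, 1 smoke and Iraqi sand rat and 2 smoke and silica rats, while rats 205 and 605 lay at 7.68 and 7.67 among the rats without smoke. Averaged over the particle exposures, Gmnn rose by 0.43 ± 0.11 (SE, 12 smoke against 12 air rats; 1.35-fold; limma adjusted p = 0.021). Its second probe set did not follow the first, with r = 0.04 over 24 rats, and its mean was higher by 0.09 in smoke rats against 0.43 for the probe set used.

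The 3 measured genes of deoxynucleotide supply were Rrm1, the large subunit of ribonucleotide reductase, thymidylate synthase (Tyms) and thymidine kinase (Tk1). Their mean exceeded that of the mates by 0.72 in rat 604, 0.34 in rat 406 and 0.25 in rat 203. Tyms was at 6.58, 6.25, 6.42 and 6.64 in the air-only rats, 6.82, 6.10, 6.61 and 6.64 in the Iraqi sand rats and 6.72, 6.44, 6.85 and 6.50 in the silica rats. It was at 6.35, 6.67, 6.63 and 6.19 in the smoke rats, 6.60, 6.63, 6.42 and 6.78 in the smoke and Iraqi sand rats and 6.27, 6.52, 7.06 and 6.57 in the smoke and silica rats. Rat 604 was the highest of the 24, and the 6 group ranges overlapped. Rrm1 and Tk1 were 0.79 and 0.75 above the mates in rat 604.

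Cyclins, Cdk1 and their regulators had 11 measured members. Their mean exceeded that of the mates by 1.06 in rat 604, 0.62 in rat 406 and 0.44 in rat 203. Cdk1, the kinase that starts mitosis, was at 7.29, 7.60, 7.54 and 7.16 in the air-only rats, 7.51, 8.18, 7.59 and 7.76 in the Iraqi sand rats and 7.97, 7.42, 7.90 and 7.78 in the silica rats. It was at 7.44, 8.32, 7.88 and 7.50 in the smoke rats, 7.21, 7.53, 7.42 and 8.61 in the smoke and Iraqi sand rats and 7.72, 8.13, 9.57 and 7.99 in the smoke and silica rats. Rats 604 (3.10-fold above its mates), 406 and 203 were the highest of all, rat 302 came next, and air-only rat 105 was the lowest. Cyclin B1 (Ccnb1), the partner of Cdk1, was at 6.62, 6.83, 6.87 and 6.78 in the air-only rats, 6.66, 6.92, 6.90 and 6.81 in the Iraqi sand rats and 6.96, 6.65, 6.86 and 6.88 in the silica rats. It was at 6.64, 7.53, 6.89 and 6.58 in the smoke rats, 6.80, 6.70, 6.72 and 7.50 in the smoke and Iraqi sand rats and 6.81, 6.99, 8.23 and 6.84 in the smoke and silica rats. Rats 203, 406, 603 and 604 were above 6.96, the highest value without smoke, and the other smoke-exposed rats were not. A second Ccnb1 probe set followed the first at r = 0.95 and was 1.90 above the mates in rat 604, against 1.35 here. Cyclin A2 (Ccna2), which acts from S phase into mitosis, was at 5.14, 5.38, 5.19 and 4.98 in the air-only rats, 5.30, 5.22, 5.40 and 5.33 in the Iraqi sand rats and 5.32, 4.99, 5.55 and 5.48 in the silica rats. It was at 5.33, 6.19, 5.37 and 5.24 in the smoke rats, 4.99, 5.09, 5.09 and 6.00 in the smoke and Iraqi sand rats and 5.50, 6.04, 7.61 and 5.68 in the smoke and silica rats. Rats 203, 406, 603 and 604 were the 4 highest, rat 605 followed at 5.68, and all others lay at or below 5.55.

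Cyclin E1 (Ccne1), which brings cells from G1 into S phase, moved less. Ccne1 was at 6.45, 6.38, 6.44 and 6.49 in the air-only rats, 6.32, 6.71, 6.38 and 6.76 in the Iraqi sand rats and 6.70, 6.48, 6.53 and 6.52 in the silica rats. It was at 6.62, 6.71, 6.63 and 6.56 in the smoke rats, 6.57, 6.61, 6.36 and 6.76 in the smoke and Iraqi sand rats and 6.31, 6.58, 7.32 and 6.71 in the smoke and silica rats. Rat 604 was the highest, 1.73-fold above its mates, and rats 203 and 406, at 6.71 and 6.76, lay beside Iraqi sand rats 302 and 305, at 6.71 and 6.76. Cyclin E2 (Ccne2) went the other way in its brightest probe set, with rat 604 differing from its mates by -0.07 and rat 406 by -0.33, although a dimmer probe set of Ccne2 was 0.81 above the mates in rat 604. Among the other regulators the phosphatase Cdkn3 and Cks2 were 1.79 and 1.69 above the mates in rat 604, cyclin B2 (Ccnb2) 1.80, and the transcription factors Foxm1 and E2f1 0.46 and 0.29. Cdc25b, the phosphatase that activates Cdk1, was 0.01 above the mates in rat 604, 0.52 in rat 203 and 0.47 in rat 406, and rat 406 was the highest of the 24 in it.

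**Figure D3:**
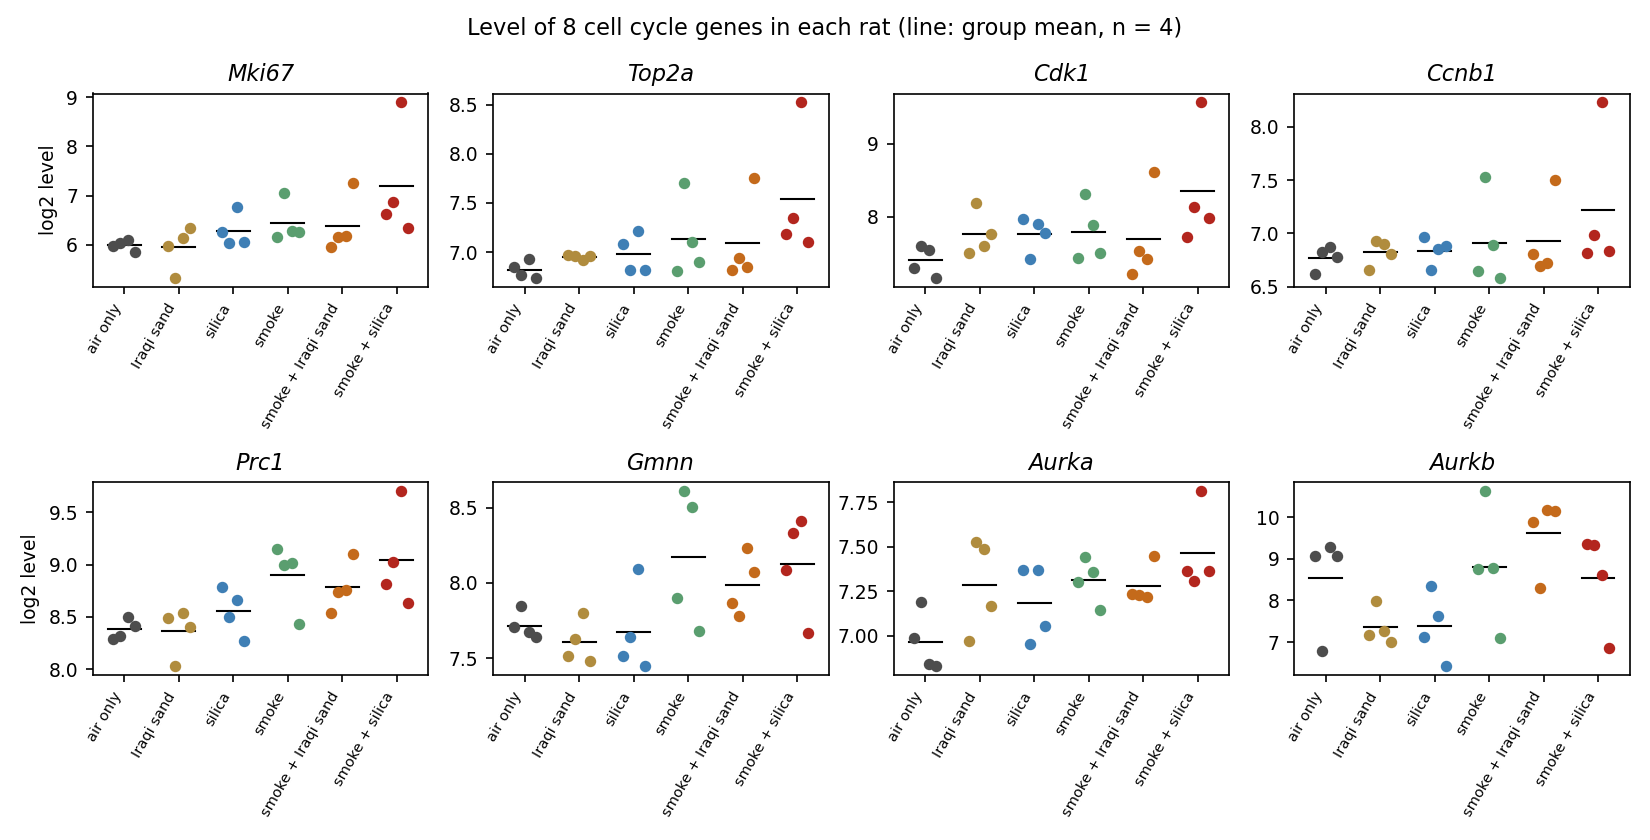
Log2 level of 8 members in each rat (points) with the group mean (line, n = 4), each panel on its own vertical scale. In Mki67, Top2a, Cdk1 and Ccnb1 the highest points of the smoke groups are rats 203, 406 and 604, while in Prc1 and Gmnn more smoke rats are high and in Aurkb the order differs.

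Among mitotic kinases and checkpoint genes the excess of rat 604 was 1.02 on average over 9 members. The checkpoint kinases Ttk and Bub1 were both 1.82 above the mates, Bub1b 1.37, the centriole kinase Plk4 1.36, the kinase Melk 0.95, the checkpoint protein Mad2l1 0.81, and the mitotic kinase Plk1 0.51. Aurora kinase A (Aurka), which acts at the spindle poles, was at 6.99, 7.19, 6.84 and 6.83 in the air-only rats, 6.97, 7.53, 7.49 and 7.17 in the Iraqi sand rats and 7.37, 6.95, 7.37 and 7.05 in the silica rats. It was at 7.30, 7.45, 7.36 and 7.15 in the smoke rats, 7.23, 7.23, 7.22 and 7.45 in the smoke and Iraqi sand rats and 7.37, 7.31, 7.82 and 7.36 in the smoke and silica rats. All 4 smoke and silica rats were above all 4 air-only rats, with 7.31 as the lowest of the first and 7.19 as the highest of the second, though Iraqi sand rats 302 and 304 reached 7.53 and 7.49 without smoke. The same separation of these groups was seen in other members, among them Mki67, Top2a, Cdk1, Ccna2, Ect2 and Prc1. How many of all genes separated groups in this way was not counted, here or for separations named below. Such a separation is therefore not shown to be particular to the members. Aurora kinase B (Aurkb), the kinase of the chromosomal passenger complex, was at 9.06, 6.79, 9.28 and 9.06 in the air-only rats, 7.17, 7.98, 7.26 and 7.00 in the Iraqi sand rats and 7.12, 8.35, 7.62 and 6.42 in the silica rats. It was at 8.75, 10.63, 8.78 and 7.09 in the smoke rats, 9.88, 8.30, 10.18 and 10.14 in the smoke and Iraqi sand rats and 9.36, 9.33, 8.62 and 6.87 in the smoke and silica rats. Its range was wide in most groups, rat 604 lay amid its mates, and all 4 smoke and Iraqi sand rats were above all 4 Iraqi sand rats.

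The spindle, kinetochore and chromosome members had a mean excess of 1.15 in rat 604, 0.48 in rat 406 and 0.43 in rat 203. Mki67 was at 5.96, 6.04, 6.09 and 5.84 in the air-only rats, 5.98, 5.33, 6.13 and 6.33 in the Iraqi sand rats and 6.26, 6.03, 6.76 and 6.06 in the silica rats. It was at 6.16, 7.06, 6.28 and 6.26 in the smoke rats, 5.95, 6.15, 6.18 and 7.25 in the smoke and Iraqi sand rats and 6.63, 6.88, 8.90 and 6.34 in the smoke and silica rats. Rats 604, 406 and 203 were the highest of the 24, at 8.90, 7.25 and 7.06, followed by rats 603 and 503, and rat 302 was the lowest. Topoisomerase 2 alpha (Top2a), which untangles sister chromosomes, was at 6.85, 6.77, 6.93 and 6.74 in the air-only rats, 6.97, 6.96, 6.92 and 6.96 in the Iraqi sand rats and 7.09, 6.82, 7.21 and 6.82 in the silica rats. It was at 6.81, 7.71, 7.10 and 6.90 in the smoke rats, 6.82, 6.94, 6.85 and 7.76 in the smoke and Iraqi sand rats and 7.18, 7.35, 8.52 and 7.11 in the smoke and silica rats. The same 3 rats led, and a second Top2a probe set followed at r = 0.88. The spindle protein Nusap1 was 1.72 above the mates in rat 604, the kinetochore protein Cenpk 1.35, the spindle motor Kif11 1.18, the microtubule depolymerase Kif2c 0.96, the kinetochore proteins Cenpf and Cenpe 0.83 and 0.52, and the passenger complex subunits Cdca8 and Birc5, partners of Aurkb, 0.70 and 0.66.

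Cytokinesis members had, together with those of mitotic exit, the largest excess in rat 604, at 1.43 on average over 5 genes. Prc1, which bundles the microtubules of the central spindle, was at 8.29, 8.32, 8.50 and 8.41 in the air-only rats, 8.49, 8.03, 8.53 and 8.41 in the Iraqi sand rats and 8.79, 8.50, 8.66 and 8.27 in the silica rats. It was at 9.15, 8.99, 9.01 and 8.43 in the smoke rats, 8.53, 8.74, 8.76 and 9.10 in the smoke and Iraqi sand rats and 8.81, 9.03, 9.71 and 8.64 in the smoke and silica rats. Rats 201, 203, 204, 406, 603 and 604 were all at 8.99 or above, higher than every rat without smoke. Rat 602 was at 8.81 against 8.79 for the highest of those, and the other 5 smoke-exposed rats lay among them. Averaged over particles, Prc1 rose by 0.48 ± 0.11 (SE, 12 smoke against 12 air rats; 1.39-fold; limma adjusted p = 0.013). Ect2 was at 6.22, 6.17, 6.16 and 6.04 in the air-only rats, 6.23, 5.81, 6.65 and 6.48 in the Iraqi sand rats and 6.85, 6.10, 6.78 and 6.57 in the silica rats. It was at 6.59, 7.53, 6.78 and 6.52 in the smoke rats, 5.99, 6.38, 6.36 and 7.52 in the smoke and Iraqi sand rats and 6.80, 7.21, 9.16 and 6.71 in the smoke and silica rats. Rats 604, 203 and 406 led again, with rat 603 next. The other members, the central spindle motors Kif20a and Kif23 and their partner Racgap1, were 1.54, 1.18 and 1.29 above the mates in rat 604. The 3 mitotic exit genes, the destruction complex activator Cdc20, its ubiquitin conjugating enzyme Ube2c, and Cdca3, were 1.26, 1.59 and 1.51 above the mates in rat 604, and in rat 406 by 0.63, 1.21 and 0.46.

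Whether smoke changed these genes was tested in limma, with 1 model over the 24 rats and Benjamini-Hochberg adjustment over all 14217 genes, and a gene was called at an adjusted p under 0.05. Averaged over the particle exposures, smoke raised 2 of the 50 members, Prc1 and Gmnn, and lowered none. This share was below the 6.39% of all genes called. Of the 50 members, 43 were higher with smoke (42.0% of all genes), and the median member difference was 0.21 against -0.02 for all genes. At an unadjusted p under 0.05, 17 members were higher (9.0% of all genes) and none lower (15.5% of all genes). By role, the median difference was -0.00 for replication genes, 0.07 for deoxynucleotide supply, 0.21 for cyclins and their regulators, 0.28 for kinases and checkpoint, 0.29 for spindle and kinetochore, 0.48 for cytokinesis and 0.21 for mitotic exit. Without rat 604 (4.64% of all genes called) the calls were Prc1 (0.40, adjusted p = 0.014), Gmnn (0.40, adjusted p = 0.041) and Cenpk (0.34, adjusted p = 0.042), and the median member difference fell to 0.10. With rats 203, 406 and 604 all left out, a choice made on the members themselves, 1 member was called, Prc1 (2.5% of all genes). The number of called members was 7 when rat 605 was left out (8.43% of all genes called) and 6 when rat 205 was (7.61%). It was 4 when rat 302, 304, 305 or 602 was left out (10.3%, 7.97%, 8.86% and 5.18% of all genes), and Prc1 and Gmnn were among the called members in these 6 settings.

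Within single particle conditions no member was called for smoke. Without particles (0.893% of all genes called in limma), 45 of 50 members were higher in smoke rats, with a median of 0.18 against -0.01 for all genes, and at an unadjusted p under 0.05 there were 3 higher and 0 lower, shares near those of all genes (5.6% higher and 4.4% lower). The smallest p-values were those of Prc1 (0.52 ± 0.19 SE, limma adjusted p = 0.29), Aurka (0.35 ± 0.13, adjusted p = 0.31) and Gmnn (0.46 ± 0.19, adjusted p = 0.37). Under Iraqi sand (1.29% of all genes called), 28 of 50 members were higher with smoke, the median was 0.06 against -0.05 for all genes, and 3 were higher and 0 lower at an unadjusted p under 0.05, against 4.6% and 16.0% of all genes. The 3 were Aurkb (2.27 ± 0.68 SE, 4.83-fold, limma adjusted p = 0.085), Kif23 (0.66 ± 0.29, adjusted p = 0.20) and Prc1 (0.42 ± 0.19, adjusted p = 0.22), and for Kif23 the value without rats 302, 104 and 604 was 0.25. Under silica (0.00703% of all genes called) 47 of 50 were higher, with a median of 0.38 against -0.01, and 16 were higher and 0 lower at an unadjusted p under 0.05, against 4.2% and 4.0% of all genes. Without rat 604 these became 35 of 50, a median of 0.10, and 1 member higher, against 2.3% of all genes. The smallest p-values under silica were those of Cdc25b (0.44 ± 0.15 SE, limma adjusted p = 0.365), Cenpk (0.66 ± 0.24, adjusted p = 0.40) and Ccna2 (0.87 ± 0.32, adjusted p = 0.425), and without rat 604 Cenpk and Ccna2 were at 0.33 and 0.40.

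The combined exposures were compared with air-only rats, which also serve as controls for the single exposures. In smoke and silica rats 1 of 50 members was called, Aurka, a share below the 3.77% of all genes called. Aurka rose by 0.50 ± 0.13 (SE, n = 4 against 4; 1.42-fold; limma adjusted p = 0.039). The call ended when rat 102, 104, 105, 602 or 604 was left out, with adjusted p-values up to 0.17, and without rat 604 no member was called (1.41% of all genes; 9 higher and 0 lower at an unadjusted p under 0.05, against 5.5% and 7.5% of all genes). The number of called members was 9 when rat 302 was left out, when 12.5% of all genes were called. It was 6 when rat 605 was left out (3.85% of all genes), 4 when rat 602 was (2.82%), 3 when rat 406 was (3.81%), and 2 when rat 304 or 205 was (3.89% and 3.38%). Just past the threshold were Cenpk (0.83 ± 0.24 SE, limma adjusted p = 0.052; 0.50 without rat 604) and Prc1 (0.67 ± 0.19, adjusted p = 0.054; 0.45 without rat 604). Mki67, Cdk1 and Top2a differed by 1.20 ± 0.40, 0.95 ± 0.32 and 0.72 ± 0.25, with limma adjusted p-values of 0.096, 0.11 and 0.11, and by 0.63, 0.55 and 0.39 without rat 604. In all, 46 of 50 members were higher than in air-only rats, the median was 0.43 against -0.02 for all genes, and 27 were higher and 0 lower at an unadjusted p under 0.05, against 8.1% and 10.3% of all genes. Without rat 604 these were 40 of 50 and 0.20.

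In smoke and Iraqi sand rats no member was called against air-only rats (0.978% of all genes in limma), and 2 were higher and 0 lower at an unadjusted p under 0.05, against 4.4% and 6.5% of all genes. Aurka was at 0.32 ± 0.13 (SE, limma adjusted p = 0.35), Prc1 at 0.40 ± 0.19 (adjusted p = 0.45) and Aurkb at 1.08 ± 0.68 (adjusted p = 0.608). The median member difference was 0.13 against -0.01 for all genes, with 39 of 50 members higher. Without rat 406 the median was -0.01.

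Particles alone moved the members little. Iraqi sand without smoke called no member (0.0281% of all genes in limma, with 1 member higher and 0 lower at an unadjusted p under 0.05, against 7.9% and 2.3% of all genes), at a median of 0.10 against 0.04 for all genes. Its smallest p-values were those of Aurka (0.33 ± 0.13 SE, limma adjusted p = 0.43), Aurkb (-1.19 ± 0.68, adjusted p = 0.54) and E2f1 (0.20 ± 0.12, adjusted p = 0.55), the last at 0.04 without rats 302, 104 and 604. Silica without smoke called no member (0.141% of all genes in limma, with 0 higher and 1 lower at an unadjusted p under 0.05, against 2.8% and 2.2% of all genes), at a median of 0.09 against -0.01. The member lower there was Cdc25b (-0.48 ± 0.15 SE, limma adjusted p = 0.53), in which all 4 silica rats were below all 4 air-only rats, and next came Aurkb (-1.17 ± 0.68, adjusted p = 1.00) and Aurka (0.22 ± 0.13, adjusted p = 1.00).

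Among smoke-exposed rats, Iraqi sand called no member (0.0141% of all genes in limma, and 0 members at an unadjusted p under 0.05 in either direction, against 1.8% of all genes higher and 2.1% lower), and 14 of 50 members were higher. The smallest p-values were those of Cdca8 (-0.29 ± 0.17 SE), Aurkb (0.81 ± 0.68) and Ccne2 (-0.17 ± 0.15), with limma adjusted p-values of 1.00. Silica under smoke also called no member (0.0141% of all genes in limma, with 4 higher and 0 lower at an unadjusted p under 0.05, against 3.7% and 4.6% of all genes). There 43 of 50 members were higher at a median of 0.26, and 28 of 50 at a median of 0.04 without rat 604. Cdca3 (0.55 ± 0.25 SE), Mad2l1 (0.34 ± 0.16) and Rrm1 (0.28 ± 0.13) came first, each at a limma adjusted p = 0.57, and without rat 604 they were at 0.17, 0.14 and 0.09. Averaged over air and smoke, Iraqi sand called no member (0.0% of all genes in limma, and 0 members at an unadjusted p under 0.05, against 3.5% of all genes higher and 1.7% lower) and had a median of 0.02, with Ccne2 at -0.20 ± 0.10, Aurka at 0.15 ± 0.10 and E2f1 at 0.12 ± 0.08 (limma adjusted p = 0.96 each). Silica averaged likewise called no member (0.345% of all genes in limma, with 3 higher and 1 lower at an unadjusted p under 0.05, against 5.1% and 6.6% of all genes), with a median of 0.17, and 0.08 without rat 604. Cdca3 (0.47 ± 0.18 SE), Cdc25b (-0.25 ± 0.11) and Mcm4 (0.30 ± 0.14) had limma adjusted p-values of 0.29, 0.36 and 0.40.

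Whether smoke and particles together gave more than the sum of each was tested as an interaction. With Iraqi sand no member was called (0.00703% of all genes in limma, with 1 member higher and 0 lower at an unadjusted p under 0.05, against 1.8% and 7.1% of all genes), and the median interaction of the members was -0.15 against -0.04 for all genes. Aurkb had 2.01 ± 0.96 (SE, limma adjusted p = 0.56), Aurka -0.36 ± 0.19 (adjusted p = 0.60) and Cdca8 -0.44 ± 0.24 (adjusted p = 0.60). With silica no member was called (0.0% of all genes in limma, with 1 member higher and 0 lower at an unadjusted p under 0.05, against 1.1% of all genes each way). The median was 0.16 with all rats and turned to -0.11 without rat 604, when 11 of 50 members were above 0 in place of 39. Cdc25b had 0.45 ± 0.21 (SE), Rrm1 0.29 ± 0.19 and Birc5 0.24 ± 0.18, each at a limma adjusted p = 1.00, and without rat 604 Rrm1 and Birc5 were at 0.09 and 0.07.

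**Figure D4:**
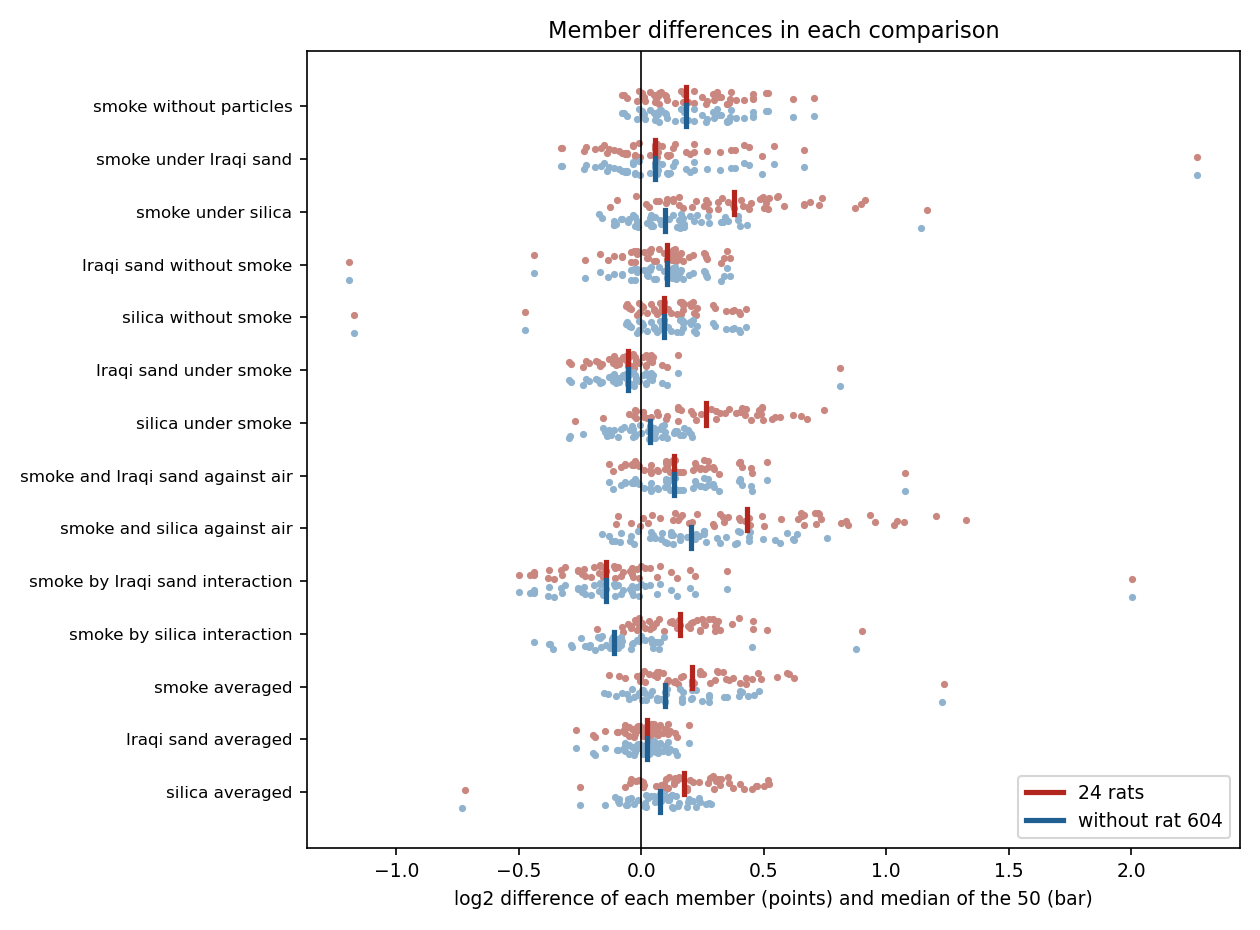
Log2 difference of each of the 50 members (points) and their median (bar) in each of the 14 comparisons, from the 24 rats (red) and without rat 604 (blue). The smoke and silica comparisons shift left without rat 604, from 0.43 to 0.20 against air-only rats and from 0.16 to -0.11 for the interaction, and the lone points at 2.27 and 2.01 are Aurkb.

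The spread between rats was larger with smoke in most members without particles and with silica, and in 27 of 50 with Iraqi sand. The SD among the 4 rats was higher in smoke and silica than in silica in 47 of 50 members (57.5% of all genes), with a median SD of 0.52 against 0.18. In smoke against air-only rats it was higher in 37 of 50 (48.5% of all genes), at 0.23 against 0.12, and in smoke and Iraqi sand against Iraqi sand in 27 of 50 (19.3% of all genes), at 0.24 against 0.26. With rats 203, 406 and 604 left out, these counts were 22, 28 and 7, against 44.3%, 44.7% and 15.1% of all genes. The median SDs with smoke were then 0.17, 0.14 and 0.11. Those rats were picked as the highest of their groups in the members, so smaller SDs largely follow from that choice.

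Of 35 measured S phase genes outside the members (40 listed), smoke averaged over particles raised Atad2, a chromatin ATPase (0.35 ± 0.10 SE, limma adjusted p = 0.042) and Hells, a chromatin remodeller (0.55 ± 0.17, adjusted p = 0.048), and lowered Clspn, a fork checkpoint protein (-0.31 ± 0.09, adjusted p = 0.039). Each of these calls ended when any of 14 or more rats was left out singly, with adjusted p-values up to 0.091, and their sizes without rat 604 were 0.33, 0.45 and -0.36. Of 45 measured mitosis genes outside the members (52 listed), Wee1 and Shcbp1 were raised. In this comparison, the same for both lists, 6.39% of all genes were called. Shcbp1, a midbody protein, rose by 0.62 ± 0.17 (SE, limma adjusted p = 0.035), and 9 rats ended its call when left out singly. Wee1, the kinase that holds Cdk1 inactive, was at 8.62, 8.29, 9.02 and 8.69 in the air-only rats, 8.54, 8.77, 8.84 and 8.82 in the Iraqi sand rats and 8.91, 8.95, 8.47 and 9.02 in the silica rats. It was at 9.21, 9.21, 9.30 and 9.12 in the smoke rats, 9.47, 9.14, 9.30 and 9.06 in the smoke and Iraqi sand rats and 9.22, 9.25, 8.99 and 9.14 in the smoke and silica rats. All smoke-exposed rats except 604 lay above 9.02, the highest rat without smoke, and rats 203 and 406 were not the highest of their groups. It rose by 0.46 ± 0.08 (SE; limma adjusted p = 0.0011, up to 0.0029 with any rat left out).

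Against air-only rats, where 3.77% of all genes were called, smoke and silica raised Hells (1.16 ± 0.29 SE, limma adjusted p = 0.025), Dtl (0.62 ± 0.16, adjusted p = 0.036), Ube2t (0.53 ± 0.15, adjusted p = 0.045), Hmmr (0.82 ± 0.23, adjusted p = 0.046), Wee1 (0.50 ± 0.13, adjusted p = 0.039) and Shcbp1 (1.38 ± 0.30, adjusted p = 0.011). All but Shcbp1 lost the call without rat 604, at 0.84, 0.42, 0.41, 0.49 and 0.55, and Shcbp1 kept it with any rat left out (adjusted p up to 0.045). Wee1 was also higher in smoke rats (0.56 ± 0.13 SE, limma adjusted p = 0.043) and in smoke and Iraqi sand rats (0.59 ± 0.13, adjusted p = 0.030), calls that ended without any of 15 and of 6 rats. In rat 604, 32 of the 35 S phase genes and 42 of the 45 mitosis genes were above all its mates, where 36.4% of all genes were. Among 18 measured genes of cell cycle exit and p53 response (20 listed), smoke averaged over particles lowered Sesn1, a p53 target, by -0.23 ± 0.05 (SE, limma adjusted p = 0.014), where 6.39% of all genes were called. In rat 604, 5 of the 18 were above all mates, a share below the 36.4% of all genes.

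After each group was centred on its mean, members were correlated across the 20 rats outside the smoke and silica group, as a description. The median correlation of a member with the mean of the others was 0.63, against 0.035 for genes outside the list, and 0.45 over 18 rats without rats 203 and 406. Ccnb2 (0.96), Top2a (0.95), Ccnb1 (0.94), Melk (0.94) and Cdk1 (0.93) were the closest, 14 members were over 0.8, and 7 were under 0.3, among them Mcm7 (0.01), Kif23 (0.03) and Ccne2 (-0.47). By role the medians were 0.54 for replication, 0.69 for deoxynucleotide supply, 0.88 for cyclins and their regulators, 0.62 for kinases and checkpoint, 0.62 for spindle and kinetochore, 0.83 for cytokinesis and 0.77 for mitotic exit. The 10 genes outside the list that followed the member mean most closely were Pclaf (0.95), Ccno (0.92), Pttg1 (0.91), Dlgap5 (0.91), Spc25 (0.90), Ska1 (0.90), Jpt2 (0.90), Dtl (0.90), Mnd1 (0.89) and Slc38a4 (0.88). Over the 18 rats these were between 0.66 and 0.87. At the opposite end were Fancl (-0.90) and the club cell secretoglobin Scgb1a1 (-0.88), which over all 24 rats had -0.38 and -0.90.

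Aurkb did not follow the other members, with r = 0.22 over the 24 rats against the mean of the rest. The genes closest to it were Ccdc65 (0.79), Cabcoco1 (0.78), Ccdc81 (0.78) and Dynlrb2 (0.77), of which Ccdc65 encodes a protein of motile cilia, and its correlation with the mean of 7 ciliated cell markers was 0.74. The array gives 1 probe set for Aurkb, and whether it reads Aurkb RNA alone was not tested.

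Markers of airway basal cells, and those of squamous epithelium, correlated with the members across rats, though squamous genes were hardly above the mates in rat 406. The mean of 7 measured basal cell genes (8 listed) was 1.95 above the mates in rat 604, 1.30 in rat 203 and 0.51 in rat 406, with 5, 7 and 4 of the 7 above all mates. It was also 1.13 above the mates in rat 302, whose member mean was 7.24. The group ranges of this mean were 5.55 to 6.27 (air-only), 5.46 to 6.79 (Iraqi sand), 5.72 to 5.89 (silica), 5.93 to 7.66 (smoke), 5.85 to 6.60 (smoke and Iraqi sand) and 5.89 to 7.93 (smoke and silica). Across 24 group-centred rats it correlated with the member mean at r = 0.85, at 0.76 without rat 604, and at 0.68 without rats 203, 406 and 604. The basal keratin Krt5 was at 8.69 in rat 604 and 8.19 in rat 203, at 6.15 in rat 406, and between 5.12 and 7.02 in the other rats. Rat 405, a mate of rat 406, was above it in Krt5, at 6.26. Squamous epithelium genes (8 measured of 12 listed) were 1.02, 0.62 and 0.08 above the mates in rats 604, 203 and 406, and airway secretory genes (9 of 11) 0.66, 1.31 and -0.13. The squamous list correlated with the member mean at r = 0.85 as well, and at 0.70 without rat 604.

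Of the other lists, macrophage genes (10 measured of 14) were 0.52, -0.09 and 0.21 above the mates in rats 604, 203 and 406, fibroblast and smooth muscle genes (11) 0.63, 0.51 and 0.59, and erythroid genes (8 of 10) 0.24, 0.43 and 0.56. Genes of T cells (11) were -0.62, -0.20 and 0.18, and of NK and cytotoxic cells (8) -1.24, -0.45 and -0.22. Heart muscle genes were -0.19 and -0.36 in rats 604 and 406 and 1.14 in rat 203. Only 2 of 8 thymocyte genes and 1 of 7 myeloid progenitor genes were measured. Over the 24 rats the correlation with the member mean was 0.68 for fibroblast and smooth muscle genes. It was 0.67 for erythroid genes, 0.64 for macrophage genes, -0.74 for NK and cytotoxic cell genes and -0.67 for lung tissue genes. The part of these cell types in the member values was not tested.

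**Figure D5:**
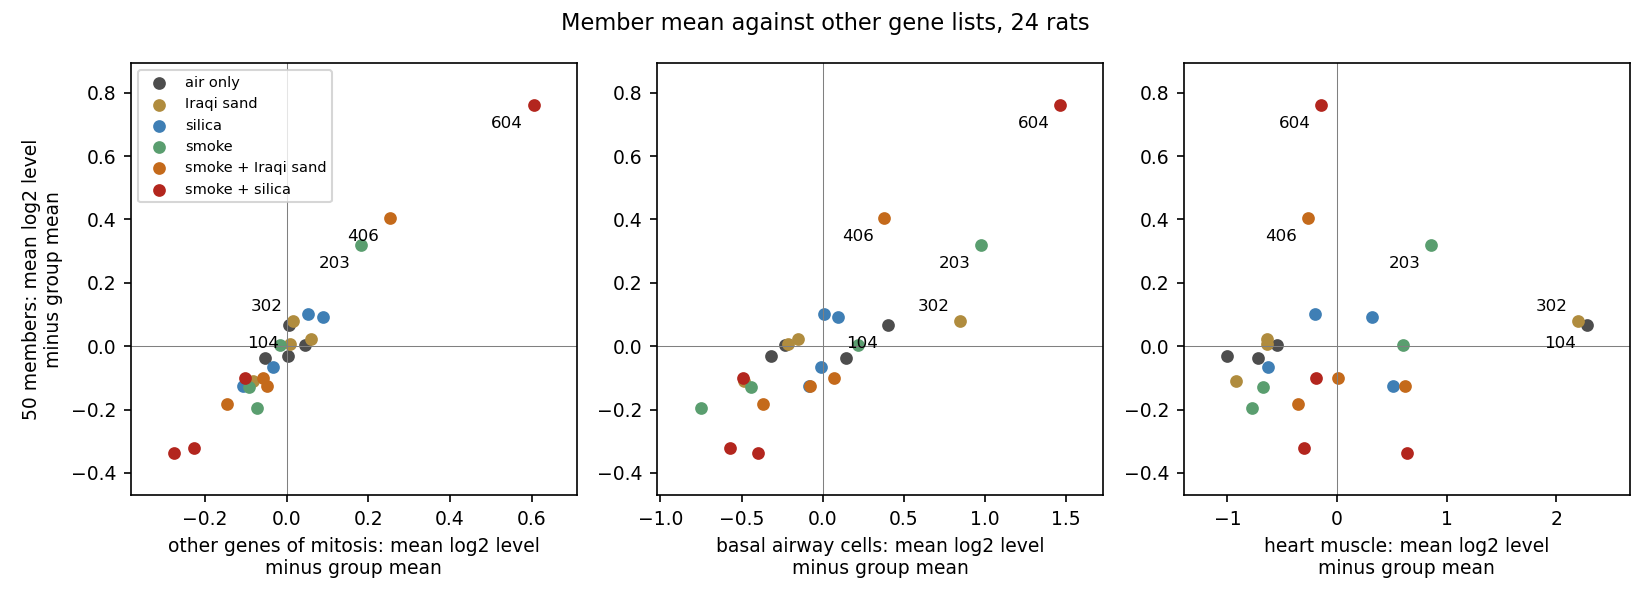
Mean log2 level of the 50 members minus the group mean (vertical axis) against the same quantity for other mitosis genes, basal airway cell genes and heart muscle genes (horizontal axes), 1 point per rat, coloured by group. Rats 203, 406 and 604 are high on both axes in the first 2 panels (r = 0.98 and 0.85 over 24 rats), and rats 302 and 104 are the highest in heart muscle genes (r = 0.14).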

How the data were processed

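RNA of the right caudal lobe was hybridised to 1 Affymetrix Rat230_2 array per rat, and the deposited log2 values were made by RMA, per the submitters' processing notes, with no version given. Each of 31099 probe sets was named through the platform annotation: 57 were controls, 20826 had 1 symbol, 436 several and 9780 none. The brightest single-symbol probe set over the 24 arrays stood for a gene, which left 14217 genes. Arrays carry no read depth, so precision rests on the 4 rats per group. Nothing in the labels says that the rats of a group were exposed or processed apart.

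limma 3.58.1 in R 4.3.3 fitted 6 group means (18 residual degrees of freedom, empirical Bayes, no low-signal filter), and 14 contrasts were each adjusted by the Benjamini-Hochberg method over all genes. Tests were two-sided, and the fit was checked on simulated data. Other steps used Python 3.11.15. The members and lists were chosen with earlier results of these data known. Values in every rat are given for a fixed list of marker genes, for called members and for the 3 members farthest above the mates in rat 604, and other genes are named by smallest p, by call or by likeness to the member mean. Alternatives were the choice of probe set, array weights, centring, quantile normalization, a filter on dim genes, RNA integrity and leaving out rats. Those without rats 203, 406 and 604 were chosen after the data were seen.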

Additional observations from a re-analysis of the deposited data

Results flagged for a closer look

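In 15 of 138 sets of 4 rats (selected members, role means and the member mean), 1 rat's gap to the nearest mate exceeded Dixon's limit for a lone outlier as a share of the whole range. Chance gives about 5% in independent sets. These sets are not independent: the members move together, and the means are made of them. Some members were also picked for their height in rat 604, so the counts here are no test against 5%. Rat 406 (smoke and Iraqi sand) was high in this way in Top2a at 7.756, Ccnb1 at 7.498, Ccna2 at 6.005 and Aurka at 7.446. It was also high in the member mean at 7.673, in the mean of deoxynucleotide supply at 7.492, and in the mean of cyclins, Cdk1 and their regulators at 7.594. Rat 604 (smoke and silica) was high in Ccnb1 at 8.231, Mcm2 at 8.692, Aurka at 7.816 and the mean of deoxynucleotide supply at 7.928. Rat 203 (smoke) was high in Mki67 at 7.056 and Ccna2 at 6.187. Aurkb was low in rat 103 (air-only) at 6.79 and in rat 404 (smoke and Iraqi sand) at 8.303. Over all 50 members and 6 groups, 36 of 300 sets passed this limit, 12 of them through rat 406, 10 through rat 604, 4 through rat 302 and 3 through rat 203.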

How the results depend on the processing

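Of 154 other settings of the counts of called members that left out no single rat, 140 stayed within 1.5 times the count reported. Only the counts were compared, whichever members were called, and most comparisons had 0 called throughout. The filter on dim genes kept 5 members, not including Aurka or Gmnn, so it could not test the calls of those 2. For smoke without particles, array weights called 3 members in place of 0, and the share of all genes called in that setting is not given here. For smoke and silica against air-only rats, 1 member (3.77% of all genes called) became 14 with array weights (17.4%). It became 3 with each array centred on its median (4.08%) and 3 with a further quantile normalization (4.28%). It was 2 without rats 203, 406 and 604 (1.42%) and 0 with only the arrays compared (3.9%). It was also 0 with RNA integrity as a covariate (0.844%) and 0 on the same 19 arrays without it (1.1%). Leaving out 1 rat gave 0 to 9. For smoke averaged over particles, 2 members (6.39% of all genes called) became 8 with array weights (18.6%). They became 4 with centring (8.15%) and 4 without rats 302, 104 and 604 (8.31%). The count was 1 without rats 203, 406 and 604 (2.5%). It was 0 with RNA integrity as a covariate (1.48%) and 0 on the same 19 arrays without it (1.73%). Leaving out 1 rat gave 2 to 7. The cause of these changes was not tested, apart from the smaller number of arrays in the settings that drop some.

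Of 392 other settings of the member medians, 5 moved by more than 0.264, the SD of the member mean within groups. This limit was wide, because the smoke and silica SD was 0.519 with rat 604 and 0.132 without it. Most of the medians were no larger than the limit, so they could vanish and still count as unmoved. Falls without rat 604 from 0.432 to 0.203 (smoke and silica against air-only rats) and from 0.208 to 0.096 (smoke averaged) counted as unmoved. The 5 that moved were those without rat 604: smoke under silica at 0.096 and the smoke by silica interaction at -0.112, or -0.13 without rats 302, 104 and 604. Over all settings Aurka lay between 0.343 and 0.579 (limma adjusted p from 0.0149 to 0.201), Gmnn between 0.26 and 0.484 (0.0033 to 0.112) and Prc1 between 0.356 and 0.528 (0.000903 to 0.1), with no change of direction. No paired analysis was possible because the rats of different groups share no number. Dim signal limits the set: 45 of 50 members lay below the median gene.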
